A study of Mus musculus with 12 samples.

Results

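The primary cilium transport and transition zone genes were examined in mouse gingiva, the gum tissue around the teeth, after silk ligature placement and in unligated mice. The genes were taken by symbol alone, and 46 of the 21965 genes in the count table matched. They comprised 6 subunits of intraflagellar transport complex A (IFT-A), 11 subunits of complex B (IFT-B), 8 genes of the BBSome and the chaperonins that assemble it, 6 motor genes, 10 genes of the MKS module and 4 of the NPHP module of the transition zone, and Arl13b. All 46 passed the filter on low counts, which left 15046 genes for testing.

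The series holds 12 polyA RNA-seq libraries in 4 groups of 3, from mice under 12 weeks of age. Wild-type (WT) C57BL/6 mice, given as C57BL/6J in the methods, and mice with a knockout of Cybb, which encodes the NOX2 subunit of the phagocyte oxidase, were each studied with a ligature around a maxillary molar for 8 days or without one (naive). The labels name no other allele or agent. The knockout is carried in the whole animal rather than in chosen cells, each group had 3 age- and sex-matched mice according to the design text, and whole gingival tissue was sequenced, so that a change in the number of cells of a type and a change in the RNA per cell cannot be told apart.

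The primary cilium is a single, non-motile, microtubule-based projection of most vertebrate cells outside the cycling state, and it gathers receptors such as those of the hedgehog pathway. Cargo enters it past the transition zone, a gate built at its base by the MKS and NPHP protein modules. IFT-B trains carry cargo towards the tip on kinesin-2, IFT-A trains return on dynein-2, and the BBSome is an adaptor that moves membrane receptors along these trains. Inherited loss of the genes gives ciliopathies such as Bardet-Biedl, Joubert and Meckel syndromes, with kidney, eye, skeletal and craniofacial defects.

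The libraries held 27958819 to 42613423 counts each. Expression is given as CPM, the counts of a gene relative to the library total after trimmed-mean (TMM) scaling, and as RPKM, the same per kilobase of exon, where genes are compared with each other. Cybb, the targeted gene, was checked first. Cybb was at 5.6, 5.38 and 4.19 CPM in naive and 8.41, 15.2 and 12.8 CPM in ligated WT gingiva, and at 41.6, 56.3 and 45.9 CPM in naive and 56.1, 51.1 and 63.7 CPM in ligated CybbKO gingiva. The group values were 5.06 ± 0.758 CPM (SD, n = 3) in naive and 12.1 ± 3.43 CPM in ligated WT gingiva, and 47.9 ± 7.56 and 57.0 ± 6.31 CPM in the libraries labelled CybbKO, so it was higher in the libraries labelled as its knockout. Counts summed over a whole gene do not show whether a transcript is intact, and the groups are called below by their labels. On the first 2 principal components, WT naive replicate 3 and CybbKO ligated replicate 2 lay apart from their groups. The former held 29372 CPM of salivary gland markers, mostly Muc5b, so the WT naive group was uneven. Its replicates 1 and 2 held 64.1 and 2785 CPM, and the other groups 1647 to 5089 CPM. WT naive replicate 1 was at -31.5 on the second component, against 44.4 for replicate 3. It is not among the 2 libraries treated below as lying apart. Oral epithelium markers summed to 77298 to 149226 CPM in every library, so the defining genes of the labelled tissue were abundant.

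Measured per exon length, the cilium genes covered a wide range of levels. Ift20, an IFT-B subunit that also sits at the Golgi, had the highest median of the 12 libraries at 50.3 RPKM, with a range of 40.1 to 56.4 RPKM that did not meet that of any other member. Ift52, an IFT-B core subunit, had a median of 14.7 RPKM and a range of 13.4 to 16.6 RPKM, which did not meet that of Kifap3, whose median was 8.80 RPKM. From Kifap3 down to Kif17, at 0.637 RPKM, the range of every gene overlapped that of its neighbour in the order. Neighbours were measured in the same libraries and not compared library by library, so the overlap does not show that they were level. Nphp4 was lowest at 0.103 RPKM and rested on 18 to 41 counts a library.

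Among the roles with more than 1 gene, the motors had the highest median at 5.56 RPKM, from Kif17, a homodimeric kinesin-2, up to Kifap3, the non-motor subunit of heterotrimeric kinesin-2. IFT-B had a median of 3.92 RPKM, against 1.81 RPKM for IFT-A, 1.85 RPKM for the MKS module and 1.44 RPKM for the BBSome group. Within IFT-A, Ift43, a small peripheral subunit, was highest at 6.92 RPKM and Wdr19, a core subunit, lowest at 0.647 RPKM. Arl13b, a GTPase of the ciliary membrane, stood at 6.45 RPKM. Exon length was the union of all annotated exons of a gene, 1651 bases for Ift43 and 11278 bases for Wdr19. Their median levels before division by length were 11.4 and 7.30 CPM. Components of 1 complex thus differed several-fold in RNA level per length, and this spread and the order of the roles depend on the lengths used.

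**Figure D1:**
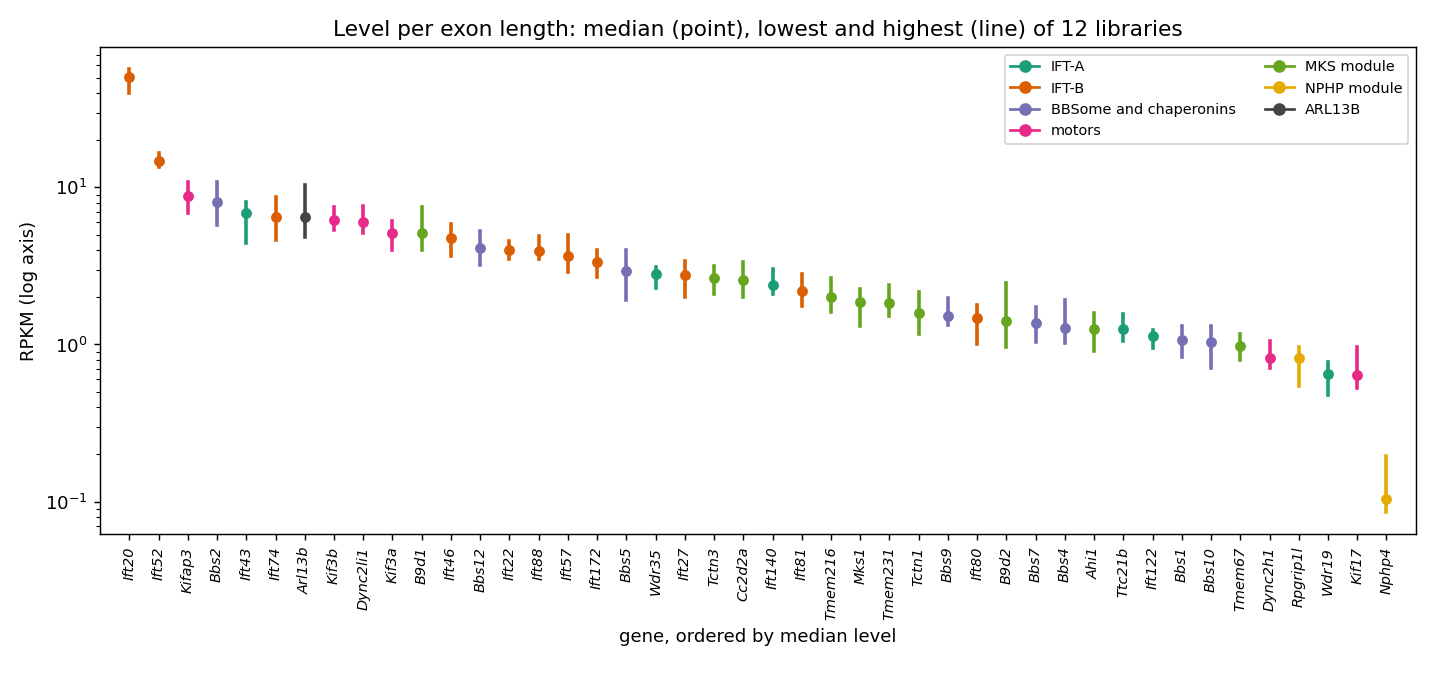
Each of 44 cilium genes on the x axis, ordered by median level, against its level in RPKM on a log y axis, with the point at the median and the line from the lowest to the highest of the 12 libraries, coloured by role. Ift20 stands above the others at a median of 50.3 RPKM, Nphp4 below them at 0.103 RPKM, and the genes between Kifap3 and Kif17 form a continuous series.

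Promoter letters shared by the members were counted, because RFX transcription factors bind the X-box found in front of many cilium genes. RefSeq windows (GRCm38.p6) from 250 bases before to 50 bases after the gene start were matched by symbol for 39 of the 46 members. The X-box lettering, GTTNCC and GGNAAC separated by 2 bases and searched on both strands, was in 4 of them (10.3%), Ahi1, Bbs7, Mks1 and Tctn1, and in 0.529% of the 27025 genes with a window. A looser lettering, GTNNCC and NGNNAC separated by 2 bases, which includes the former, was in 14 (35.9%) against 5.26%, and the half-site GTTGCC in 21 (53.8%) against 14.1%. Of the 16 sites of the looser lettering, 14 had their centre within 100 bases of the gene start. Wdr19 had the largest difference between the genotypes' responses of the members, which was not called, and its site matches the looser lettering only. A link between the letters and the responses was not tested. The 4 full sites and that of Wdr19 are given 5′ to 3′ on the gene's strand, with the matched letters in capitals.
Ahi1, chr10:20952560-20952589, + strand: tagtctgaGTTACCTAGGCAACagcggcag
Bbs7, chr3:36613489-36613518, - strand: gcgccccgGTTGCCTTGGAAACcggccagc
Mks1, chr11:87853183-87853212, + strand: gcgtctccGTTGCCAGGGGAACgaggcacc
Tctn1, chr5:122264411-122264432, - strand: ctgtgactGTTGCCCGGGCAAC
Wdr19, chr5:65199654-65199683, + strand: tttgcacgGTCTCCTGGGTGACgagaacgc

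The first comparison asked how the genes responded to 8 days of ligature, averaged over the 2 genotypes. At an adjusted p under 0.05, 4 of the 46 were called (8.70%), against 24.4% of all genes tested and 26.2% of the 10945 genes within the members' range of levels. Of these 3 rose, among them Cc2d2a and Kif3b, against 14.7% of all genes, and Ift20 fell, against 9.66%. An unadjusted p under 0.05 was reached by 9 members (19.6%), against 37.2% of all genes. The changes were small. Over the 44 genes shown they ran from -0.31 for Arl13b to 0.50 for Cc2d2a on the log2 scale. All 46 had a median of -0.07 against -0.03 over all genes, and a median size without sign of 0.17 against 0.24. For all 46 genes the approximate 95% interval of the change lay within 2-fold in either direction.

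Cc2d2a, a coiled-coil and C2-domain protein of the MKS module that is mutated in Joubert and Meckel syndromes, gave the clearest change. Naive WT gingiva held 14.4, 13.6 and 15.3 CPM and ligated WT gingiva 20.3, 22.7 and 20.2 CPM. The libraries labelled CybbKO held 15.3, 14.5 and 14.7 CPM without and 20.8, 19.8 and 20.5 CPM with the ligature. All 6 ligated libraries were above all 6 naive ones. The log2 change was 0.50 (SE 0.08, 1.42-fold, adjusted p = 0.00130, edgeR), and the exact two-sided permutation test of 6 against 6 libraries gave p = 0.002165, the smallest it can give. It was called under all 19 alternatives of the processing.

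Its neighbours in the MKS module moved less. Of the 10 genes, 5 were higher and 5 lower, with a median of -0.06 and no other call. Tctn1, a tectonic of the same module, had the next largest change at 0.30 (SE 0.14, adjusted p = 0.144). Tctn1 was at 10.7, 9.61 and 15.3 CPM in naive and 14.4, 15.4 and 12.1 CPM in ligated WT gingiva, and at 12.9, 10.1 and 12.9 CPM in naive and 15.1, 17.9 and 13.4 CPM in ligated CybbKO gingiva. The conditions overlapped in WT, through WT naive replicate 3, and not in CybbKO gingiva. Exons of genes on the opposite strand cover 25.5% of Tctn1's exon bases, and whether the counting used strand is not settled here. B9d1 was at 6.4, 8.16 and 11.9 CPM in naive and 8.66, 8.56 and 7.24 CPM in ligated WT gingiva, and at 8.6, 7.05 and 8.57 CPM in naive and 7.55, 8.08 and 6.44 CPM in ligated CybbKO gingiva. This gene, the MKS member with the highest level per length, changed by -0.12 (SE 0.16), and its highest value was in WT naive replicate 3, which lay apart.

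In the NPHP module, Rpgrip1l, a transition zone scaffold, was higher by 0.30 (SE 0.16, adjusted p = 0.189) and Nphp4 lower by 0.24 (SE 0.28, adjusted p = 0.574), both without a call. Rpgrip1l was at 13.1, 7.94 and 9.11 CPM in naive and 12.7, 13.6 and 14.1 CPM in ligated WT gingiva, and at 9.12, 12.5 and 9.09 CPM in naive and 11.8, 9.15 and 13.6 CPM in ligated CybbKO gingiva. The conditions overlapped for Rpgrip1l in both genotypes.

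Among the motors, Kif3b, a motor subunit of heterotrimeric kinesin-2, rose by 0.30 (SE 0.07, 1.23-fold, adjusted p = 0.0125). WT libraries held 32.1, 30.6 and 33.6 CPM without and 39.7, 41.0 and 38.2 CPM with the ligature, and those labelled CybbKO 31.9, 33.3 and 30.2 against 38.9, 36.0 and 42.1 CPM. As for Cc2d2a, the 6 ligated and 6 naive libraries did not overlap (exact two-sided permutation p = 0.002165), and the call held under all 19 alternatives. Its partner Kif3a was higher by 0.20 (SE 0.10, adjusted p = 0.185), whereas Kifap3 was at -0.11 (SE 0.11), Kif17 at -0.27 (SE 0.16), and the dynein-2 chains Dync2h1 and Dync2li1 at -0.27 (SE 0.11, adjusted p = 0.0887) and -0.12 (SE 0.10). Kifap3 was at 43.3, 34.8 and 32.6 CPM in naive and 35.2, 34.1 and 41.1 CPM in ligated WT gingiva, and at 34.7, 42.3 and 38.7 CPM in naive and 36, 27.6 and 35.4 CPM in ligated CybbKO gingiva. Kif17 was at 2.92, 3.7 and 3.06 CPM in naive and 2.41, 2.7 and 2.7 CPM in ligated WT gingiva, and at 4.39, 2.91 and 3.17 CPM in naive and 2.79, 3.42 and 2.72 CPM in ligated CybbKO gingiva. Kifap3 overlapped between conditions in both genotypes and Kif17 in CybbKO only, and Kif3b was the one motor called.

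Ift20 was the one member that fell with a call. Its level was 77.0, 77.4 and 81.4 CPM in naive and 76.4, 68.6 and 69.3 CPM in ligated WT gingiva. In the libraries labelled CybbKO it was 86.0, 86.0 and 85.6 CPM without and 67.1, 65.4 and 61.2 CPM with the ligature. Every ligated library was below every naive one (exact two-sided permutation p = 0.002165), by little in WT and by more in CybbKO gingiva. The averaged log2 change was -0.27 (SE 0.06, adjusted p = 0.00928) and held the call in 18 of 19 alternatives. Scaling by library size alone gave -0.18 and an adjusted p of 0.0811.

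The other IFT genes were not called. In IFT-B, 7 of 11 were lower and 4 higher, with a median of -0.10. The highest of these was Ift80, a peripheral subunit, at 0.21 (SE 0.14, adjusted p = 0.295). Ift80 was at 16.2, 15.8 and 12.6 CPM in naive and 18.4, 19.6 and 22.2 CPM in ligated WT gingiva, and at 15.9, 21.2 and 18.1 CPM in naive and 22.1, 13.5 and 18.9 CPM in ligated CybbKO gingiva. It was higher with the ligature in every WT library and overlapped in CybbKO gingiva. In IFT-A, 3 of 6 were higher and 3 lower. Ift43 was higher by 0.38 (SE 0.15, adjusted p = 0.0818) and Wdr19 by 0.30 (SE 0.14, adjusted p = 0.125). Ift43 was at 7.37, 9.17 and 12.7 CPM in naive and 11.9, 13.2 and 11 CPM in ligated WT gingiva, and at 10, 7.27 and 10.4 CPM in naive and 13.4, 12.1 and 12.5 CPM in ligated CybbKO gingiva. The overlap in WT came through WT naive replicate 3. Ift140, a core subunit, was lower by 0.22 (SE 0.09, adjusted p = 0.1).

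Of the 8 BBSome genes, 5 were lower and 3 higher, with a median of -0.10 and no call. Bbs7, at -0.26 (SE 0.14, adjusted p = 0.182), and Bbs2, at -0.24 (SE 0.11, adjusted p = 0.116), moved furthest. Bbs7 was at 8.59, 7.05 and 7.65 CPM in naive and 6.72, 7.56 and 5.55 CPM in ligated WT gingiva, and at 7.1, 9.35 and 7.99 CPM in naive and 7.96, 5.88 and 6.05 CPM in ligated CybbKO gingiva. Bbs2 was at 30.3, 26.3 and 25.6 CPM in naive and 28.8, 25.9 and 25.1 CPM in ligated WT gingiva, and at 28.2, 35.8 and 31.4 CPM in naive and 23.8, 27.1 and 19.1 CPM in ligated CybbKO gingiva. Both overlapped in WT, and Bbs2 alone of the pair did not overlap in CybbKO gingiva. Bbs1, which contacts the membrane GTPase ARL6, was the highest at 0.22 (SE 0.11, adjusted p = 0.188). Arl13b was at 52.6, 33.8 and 28.5 CPM in naive and 35.3, 31.9 and 29.3 CPM in ligated WT gingiva, and at 32.6, 47.9 and 33.1 CPM in naive and 30.6, 24.6 and 33.5 CPM in ligated CybbKO gingiva. Its change was -0.31 (SE 0.16, adjusted p = 0.192), and its naive values spread widely and overlapped the ligated ones.

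**Figure D2:**
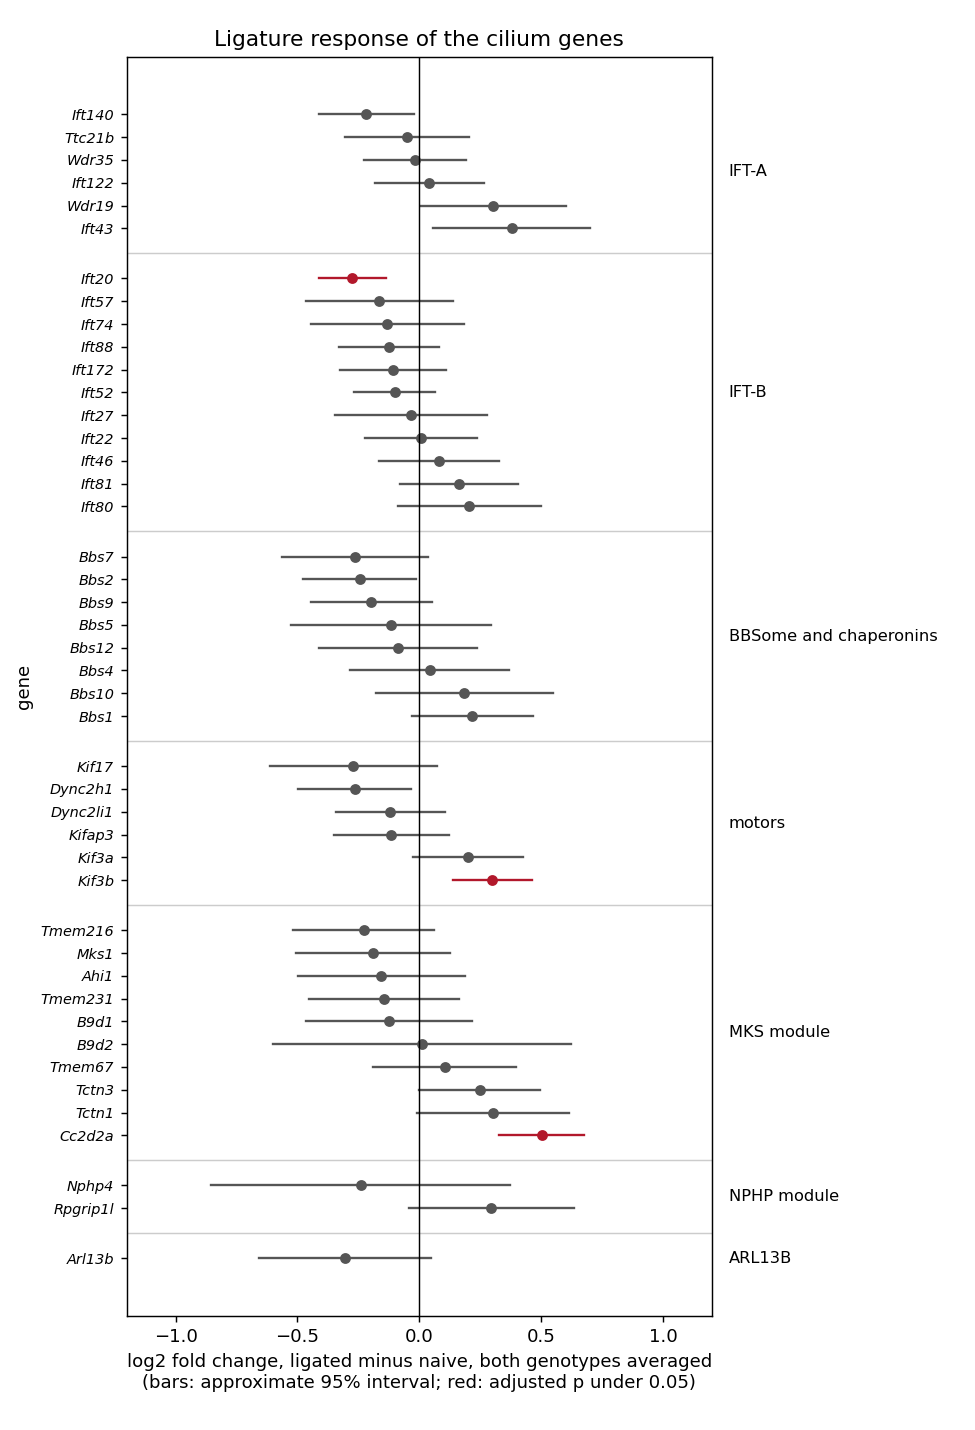
The log2 fold change of ligated minus naive gingiva, averaged over genotypes (x axis), for each of 44 cilium genes (y axis), grouped by role, with bars for the approximate 95% interval and red for an adjusted p under 0.05. Cc2d2a (0.50) and Kif3b (0.30) are red to the right of 0 and Ift20 (-0.27) to the left, and changes in both directions occur in each group with more than 1 gene.

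In 3 of the 46 genes, Cc2d2a, Kif3b and Ift20, the 6 ligated and 6 naive libraries did not overlap, against 11% of all genes. Leaving out both libraries that lay apart raised the number of members called from 4 to 9 and the share of all genes called to 33.4%. Cc2d2a, Kif3b and Ift20 were among the 9, with changes of 0.56 for Cc2d2a, 0.37 for Kif3b and -0.24 for Ift20. So were Ift43 (0.54, adjusted p = 0.0115), Wdr19 (0.39, adjusted p = 0.0385), Tctn1 (0.39, adjusted p = 0.0305) and Tctn3 (0.36, adjusted p = 0.0295), which were higher, and Bbs2 (-0.30, adjusted p = 0.0472), which was lower. Leaving out WT naive replicate 3 alone gave 7 calls, beside 4091 of 15185 genes, and DESeq2 gave 6, against 28.2% of all genes. Scaling by library size alone moved the median of all genes from -0.03 to 0.07 and the member median from -0.07 to 0.03, gave 5 calls against 22.3% of all genes, and moved the higher calls over all genes from 2215 of 3668 to 2628 of 3354.

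**Figure D3:**
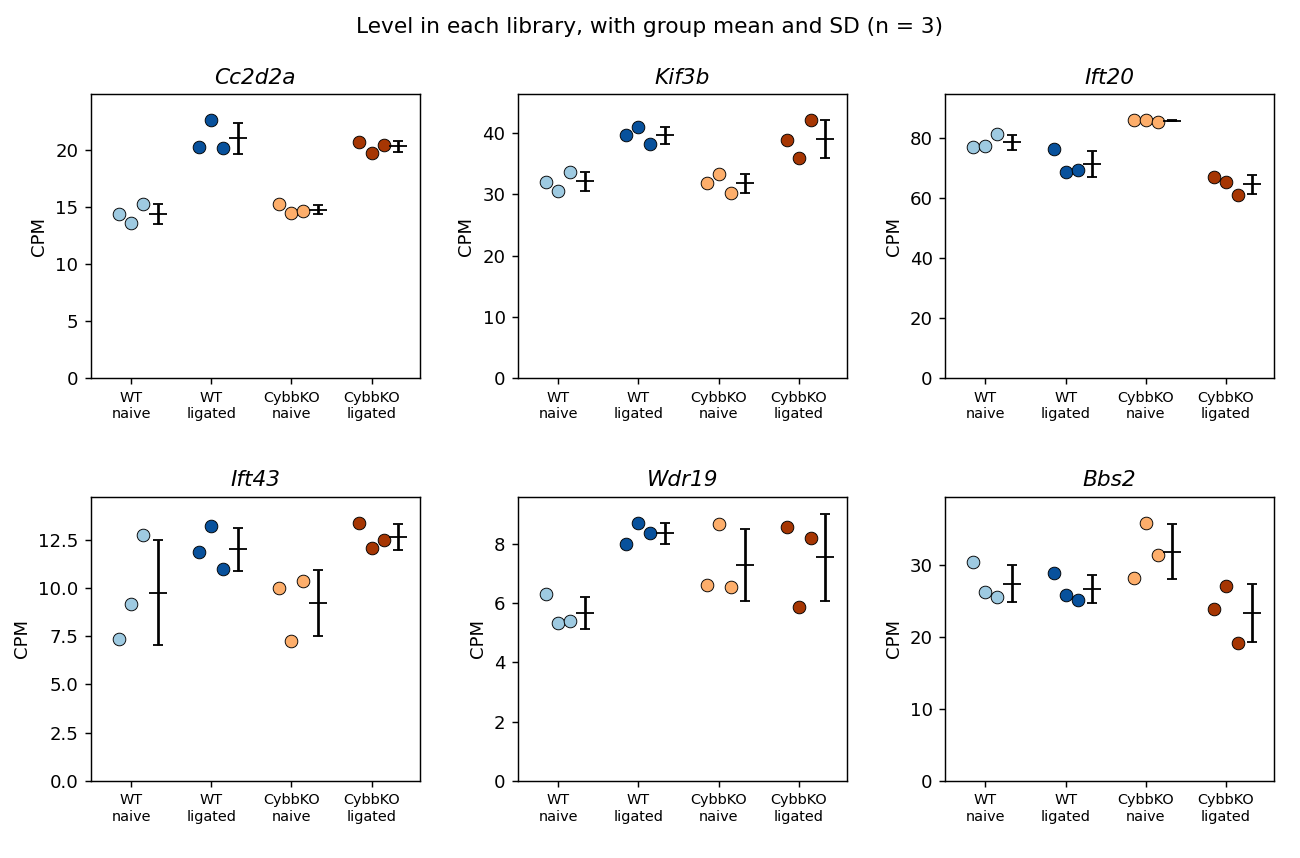
Level in CPM (y axis, from 0) in each of the 3 libraries of each group (x axis) for 6 genes, with the group mean and SD beside the points. The ligated points of Cc2d2a and Kif3b lie above all naive points in both genotypes and those of Ift20 below, whereas those of Ift43, Wdr19 and Bbs2 overlap the naive points in at least 1 genotype.

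The response was next taken within each genotype. In WT gingiva only Cc2d2a was called, 1 of 46 (2.17%) against 3.2% of all genes, 2.31% of them higher and 0.884% lower, with a change of 0.55 (SE 0.11, adjusted p = 0.0282). The member median was -0.00 against -0.03 over all genes, and its sign was not stable. It ran from -0.012 to 0.082 with single libraries left out, and was 0.11 without both libraries that lay apart, against 0.02 over all genes, and 0.11 with library size alone, against 0.08. DESeq2 and scaling by library size alone also called 1 member there, against 8.93% and 3.62% of all genes, and the latter moved the higher calls over all genes from 348 of 481 to 477 of 545. An unadjusted p under 0.05 was reached by 4 members against 19.9%, and 10 did not overlap between conditions against 24.9%. In the libraries labelled CybbKO, Cc2d2a rose by 0.46 (SE 0.11, adjusted p = 0.0213) and Ift20 fell by 0.41 (SE 0.09, adjusted p = 0.0124), 2 of 46 (4.35%) against 13.0% of all genes. Of all genes 9.95% were called higher and 3.04% lower there, and the member median was -0.11 against -0.03. An unadjusted p under 0.05 was reached by 8 members against 27.7%, and 12 did not overlap against 31.4%. DESeq2 called 5 members against 17.8%, and scaling by library size alone 3 against 12.8%. In WT gingiva Ift20 changed by -0.14 (SE 0.09, adjusted p = 0.424).

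These within-genotype calls rested on few libraries. The Cc2d2a call in WT was lost, at changes of 0.49 to 0.61, on leaving out any WT ligated replicate, WT naive replicate 1 or 2, or CybbKO ligated replicate 1. The Ift20 call in CybbKO was lost without CybbKO ligated replicate 3, at a change of -0.37, and that of Cc2d2a without CybbKO ligated replicate 1 or 3 or any CybbKO naive replicate, at changes of 0.44 to 0.48. The calls over all genes in WT moved as well, from 481 to 27 of 15206 without WT naive replicate 2, 113 of 15203 without WT naive replicate 1, 247, 110 and 120 without WT ligated replicates 1, 2 and 3, and 290 without CybbKO ligated replicate 1, and to 737 of 15185 without WT naive replicate 3 and 900 of 15172 without CybbKO ligated replicate 2. With only the libraries compared, Cc2d2a lost the call in both genotypes, at 0.55 in WT and 0.48 in CybbKO, and Ift20 in CybbKO, at -0.39. A replicate block also removed the Cc2d2a call in both genotypes, beside 271 genes called in WT and 1573 in CybbKO. The number of members called in CybbKO was 0 beside 854 of 15172 genes without CybbKO ligated replicate 3, 1 beside 837 of 15173 without CybbKO ligated replicate 1, 1 beside 1113 of 15195 without CybbKO naive replicate 2 and 1 beside 1148 of 15197 without CybbKO naive replicate 3. It was 4 beside 2390 of 15185 without WT naive replicate 3 and 5 beside 2949 of 15172 without CybbKO ligated replicate 2. Leaving out both libraries that lay apart gave 1 call in WT and 6 in CybbKO, against 10% and 24.5% of all genes. Among the 6 were Cc2d2a and Kif3b, which were higher, and Ift20, Ift140 and Bbs2, which were lower. For 3 libraries against 3, the smallest p of the exact permutation test is 0.1, which any gene without overlap of the libraries gives. Cc2d2a, Kif3b and Ift20 did not overlap in either genotype, and neither did 24.9% of all genes in WT and 31.4% in CybbKO.

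The responses of the 2 genotypes share no library. Over the 46 genes their changes correlated at Pearson's r = 0.72 and Spearman's rho = 0.71, close to the 0.76 and 0.73 over all 15046 genes, and 37 (80.4%) had the same sign, against 79.6% of all genes. These describe genes, which are not independent replicates. Both responses were positive for 14 members and negative for 23. The CybbKO response was the lower of the 2 in 35 of the 46, against 46.7% of all genes, and the median of this difference depended on single libraries, as given with the genotype tests.

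**Figure D4:**
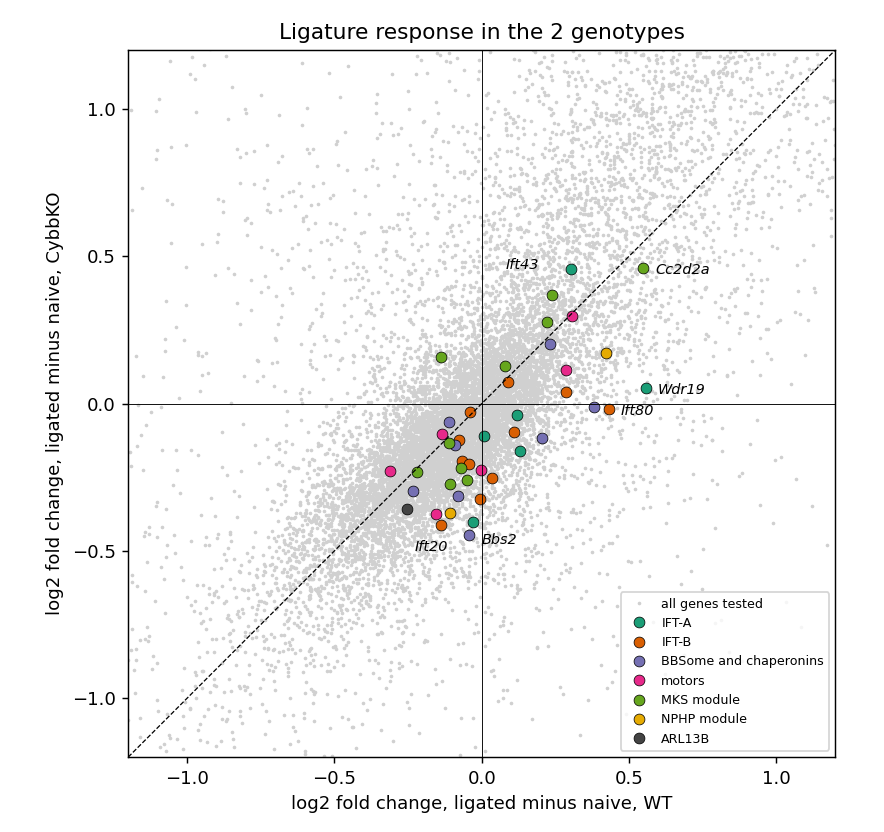
The log2 change of ligated minus naive gingiva in WT (x axis) against that in the libraries labelled CybbKO (y axis), for all genes tested in grey and 44 cilium genes coloured by role, with equal values on the dashed line and 1711 genes beyond 1.2 in size not drawn. Most cilium genes lie below the dashed line, among them Wdr19 and Ift80.

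Differences between the genotypes were then tested directly. None of the 46 was called between CybbKO and WT in ligated gingiva, in naive gingiva or in the interaction (edgeR), and none had an unadjusted p under 0.05. DESeq2 also called none of them, against 0.112%, 0.011% and 0% of all genes, nor was any called without both libraries that lay apart, against 0.00661%, 0.00661% and 0%. Over all genes edgeR called 0.00665%, 0.00665% and 0%, with Cybb the one gene called in each of the first 2, and 3.34%, 2.03% and 2.27% had an unadjusted p under 0.05. The member medians were -0.08, 0.03 and -0.14, against 0.01, 0.00 and 0.02 over all genes, with 11, 28 and 11 of the 46 above 0 against 53.4%, 50.5% and 53.3% of all genes. Leaving out single libraries moved the member medians from -0.10 to -0.048 in ligated gingiva, from 0.0003 to 0.084 in naive gingiva and from -0.19 without CybbKO naive replicate 3 to -0.059 without CybbKO naive replicate 2 in the interaction. The last was -0.082 without WT ligated replicate 2 and -0.085 and -0.09 without WT naive replicate 2 and CybbKO ligated replicate 2. The 95% intervals lay within 2-fold for 45, 45 and 40 genes.

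The furthest of these differences were read as values. Bbs10, a chaperonin-like protein that helps to assemble the BBSome, was at 3.88, 4.0 and 3.27 CPM in ligated WT and 3.13, 2.17 and 3.35 CPM in ligated CybbKO gingiva, a difference of -0.36 (95% interval -0.88 to 0.15). Without the ligature it was at 3.08, 3.04 and 2.44 CPM in WT and 2.34, 3.19 and 3.2 CPM in CybbKO gingiva. Wdr19 was at 6.30, 5.34 and 5.39 CPM in naive WT and 6.61, 8.68 and 6.56 CPM in naive CybbKO gingiva, a difference of 0.36 (-0.06 to 0.78) without overlap of the libraries. With the ligature it was at 7.99, 8.71 and 8.38 CPM in WT and 8.59, 5.86 and 8.19 CPM in CybbKO gingiva. The gene was thus higher with the ligature in WT, by 0.56 (SE 0.19, adjusted p = 0.133), and near level in CybbKO, by 0.05 (SE 0.19). Its difference between the responses was the largest of the members, -0.51 (-1.10 to 0.09), and came to -0.31 without both libraries that lay apart, 1 of which, CybbKO ligated replicate 2, held the lowest ligated value.

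Ift80, Bbs2 and Ift20 also differed between the responses by amounts that did not pass the test. For Ift80 the difference was -0.45 (-1.04 to 0.14), and -0.17 without both libraries that lay apart. For Bbs2 it was -0.41 (-0.87 to 0.06), with group means of 27.4 ± 2.58 and 26.6 ± 1.94 CPM in WT and 31.8 ± 3.81 and 23.3 ± 4.02 CPM in CybbKO gingiva. For Ift20 it was -0.27 (-0.55 to 0.00), and its libraries labelled CybbKO were all above the WT ones without and all below them with the ligature. Such separation was seen for 3 members in naive gingiva (Ift140, Wdr19 and Ift20) against 5.11% of all genes, and for 3 in ligated gingiva (Ift20, Dync2h1 and Kif17) against 7.84%.

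Other genes of the cilium were counted from lists of related genes in the averaged ligature comparison. Of 28 further transport and transition zone genes tested, Tmem107 (-0.61, adjusted p = 0.00585), Anks6 (-0.77, adjusted p = 0.0209) and Cluap1 (-0.31, adjusted p = 0.0325) fell and none rose, with a median of -0.01. TMEM107 belongs to the MKS module, ANKS6 to the inversin compartment and CLUAP1 to IFT-B. The 3 with the highest mean CPM, Tulp3, Lztfl1 and Unc119b, changed by 0.05, -0.18 and 0.15 (adjusted p = 0.799, 0.442 and 0.315). Of 22 genes of the basal body and its appendages, Nin, which encodes the microtubule anchor ninein, rose by 0.55 (adjusted p = 0.0187), with a list median of -0.07. Cetn3, Odf2 and Pcm1, with the highest mean CPM there, changed by -0.33, 0.08 and -0.05 (adjusted p = 0.0645, 0.465 and 0.837). Over all genes 24.4% were called in this comparison.

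In the hedgehog pathway, 2 of 14 genes tested rose and 2 fell, a share close to that of all genes. The co-receptor gene Cdon rose by 0.62 (adjusted p = 0.00808), from 21 and 22.8 CPM in naive to 35.7 and 31.8 CPM in ligated WT and CybbKO gingiva, and the ligand gene Dhh rose by 0.85 (adjusted p = 0.0114) at 0.761 to 2.61 CPM over the libraries. Gli2, a transcription factor of the pathway, fell by 0.48 (adjusted p = 0.0143), and Gpr161, a ciliary receptor that restrains it, fell by 0.36 (adjusted p = 0.0291). Of the pathway's target genes, Ptch1, Gli1 and Hhip were not called in the averaged comparison. Ptch1 changed by 0.04 (SE 0.12) and Gli1 by -0.28 (SE 0.28). Ptch1 was at 16.1, 16.4 and 18 CPM in naive and 15, 19 and 18.2 CPM in ligated WT gingiva, and at 15.1, 19.4 and 15.1 CPM in naive and 17.6, 13.5 and 19.3 CPM in ligated CybbKO gingiva. Gli1 was at 2.8, 4.65 and 7.69 CPM in naive and 3.21, 4.08 and 2.59 CPM in ligated WT gingiva, and at 4.68, 2.86 and 3.23 CPM in naive and 4.62, 4.39 and 2.15 CPM in ligated CybbKO gingiva. Neither separated the conditions, and the highest Gli1 value was in WT naive replicate 3. Hhip, a target that encodes a ligand-binding inhibitor, changed by 0.94 (adjusted p = 0.109) on 5 to 69 counts a library. In CybbKO gingiva 2 of the 14 genes were called, against 13.0% of all genes, Gli2, which fell by 0.60 (adjusted p = 0.0401), and Hhip. The latter rose there by 2.03 (adjusted p = 0.0358), from 0.293 ± 0.134 to 1.21 ± 0.621 CPM (SD, n = 3), and was at 0.502 ± 0.198 and 0.448 ± 0.27 CPM in naive and ligated WT gingiva (-0.16, adjusted p = 0.915). The difference between these responses was not called (2.19, adjusted p = 1.0). Smo, Sufu and Gas1, the most abundant genes of the list, changed by 0.14, 0.12 and 0.29 without a call.

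Of the 5 lists of cilium-related genes, that of cilium disassembly had the median furthest from 0, with 5 of 10 higher, 1 lower and a median of 0.46. Nek2 (1.46, adjusted p = 0.000277), Aurka (1.36, adjusted p = 0.000804), Kif2c (1.66, adjusted p = 0.000147) and Plk1 (1.56, adjusted p = 0.000648), all also mitotic genes, and Nedd9 (0.56, adjusted p = 0.0366), a scaffold that activates Aurora A, rose. Dvl2 fell by 0.57 (adjusted p = 0.0301). Kif2a and Hdac6, which with Nedd9 had the highest mean CPM, changed by -0.24 and 0.07 (adjusted p = 0.179 and 0.662). Of 11 proliferation markers, 8 rose and 2, the replication genes Pcna and Mcm5, fell, with a median of 1.17, and their summed level was 235 to 434 CPM in naive and 436 to 664 CPM in ligated libraries. Their part in the disassembly list was not tested.

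In the list of RFX genes and other cilium transcription factors, Rfx2 fell by 0.92 (adjusted p = 0.0206), from 12.8 and 13.3 CPM in naive to 6.8 and 6.98 CPM in ligated WT and CybbKO gingiva. The other 5 genes tested were not called. The list held genes of the RFX family, and a role in cilia is not implied for each, such as Rfx5. The 3 with the highest mean CPM, Rfx7, Rfx5 and Rfx1, changed by -0.01, 0.31 and -0.27 (adjusted p = 0.962, 0.0773 and 0.261). Foxj1, the master factor of motile cilia, was at 0 to 0.107 CPM, on at most 4 counts a library. Of 22 motile cilium markers only 6 passed the filter, and 1 of them, Tppp3, which is not restricted to ciliated cells, fell by 1.24 (adjusted p = 0.00636), while Ccdc39 changed by 0.41 (adjusted p = 0.298) and Cfap43, with the highest CPM of the list at 88.9 to 170 CPM, changed by -0.18 (adjusted p = 0.428). Sntn was at 0 in all libraries.

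**Figure D5:**
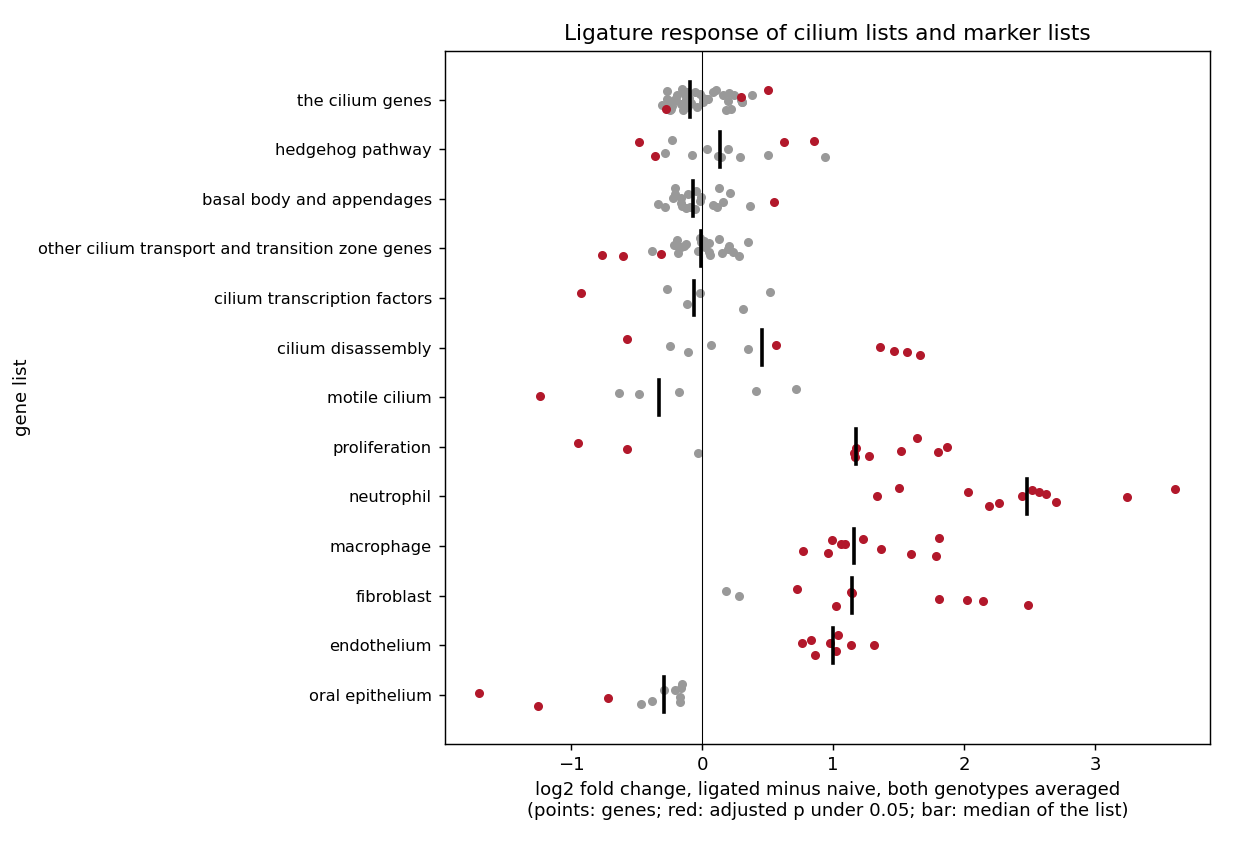
The log2 change of ligated minus naive gingiva, averaged over genotypes (x axis), of each tested gene in 44 cilium genes and in 12 gene lists (y axis), with red for an adjusted p under 0.05 and a bar at the median of each list. The cilium genes lie within -0.31 and 0.50, whereas the neutrophil list has its median at 2.48, the proliferation list at 1.17 and the fibroblast list at 1.14.

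Markers of other cell types moved with the ligature over the same libraries. Genes called in the comparison averaged over genotypes are counted first, in which 14.7% of all genes were called higher and 9.66% lower. All 12 neutrophil genes tested rose, with a median of 2.48, and their summed level was 394 to 967 CPM in naive and 1373 to 11901 CPM in ligated libraries. The 10 macrophage genes and the 8 endothelial genes all rose, with medians of 1.16 and 1.00, and 8 of 10 fibroblast genes, with a median of 1.14 and sums of 1488 to 3074 CPM against 4048 to 10676 CPM. Within WT alone, 1 neutrophil, 2 macrophage, 4 endothelial and 3 fibroblast genes were called higher, against 2.31% of all genes. Within CybbKO these were 10, 10, 7 and 8, against 9.95%. In the averaged comparison 3 of 11 oral epithelium genes fell, with a median of -0.29. Of the smaller lists, 5 of 8 T cell genes and 5 of 9 osteoblast genes rose, 2 of 5 B and plasma cell genes and 1 of 7 Schwann cell genes fell, 1 of 10 skeletal muscle genes rose, 1 salivary gland gene of 7 rose and 1 fell, and none of 4 tooth genes was called. T cell and osteoblast calls were 0 and 1 within WT, and 1 and 4 within CybbKO. No gene of any list was called between the genotypes. The neutrophil genes had medians of 1.33 between CybbKO and WT in ligated gingiva and 0.65 in naive gingiva, the macrophage genes of 0.57 and -0.29, and the fibroblast genes of 0.31 and -0.48. In the interaction the medians were 0.89 for neutrophil, 0.92 for macrophage and 0.75 for fibroblast genes, beside -0.14 for the 46 cilium genes, which ran from -0.19 to -0.059 with single libraries left out. Their part in the genotype differences of the cilium genes was not tested. Against these shifts, the summed level of the 46 cilium genes was 723 ± 38.4 and 746 ± 16.2 CPM in naive and ligated WT gingiva and 756 ± 37.3 and 708 ± 17.3 CPM in CybbKO gingiva. The part of cell composition in the 4 called changes was not tested.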

How the data were processed

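Total RNA from mouse gingiva was made into stranded polyA libraries and sequenced. The deposited values are counts of reads per gene, 1 column a library, which the authors made by aligning to GRCm38. The methods name STAR with featureCounts in reverse-strand mode, whereas the submitters' processing notes list HTSeq 0.10.0 and FastQC 0.10.1, so the counting tool is not settled. Libraries were grouped by their labels, and 0 other value columns were present.

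Symbols and exon lengths came from GENCODE M21 (21939 of 21965 genes matched). Genes were filtered with filterByExpr, scaled by TMM and tested in 1 fit of 12 libraries with a mean per group, using the quasi-likelihood F test of edgeR 4.0.16 in R 4.3.3, with Benjamini-Hochberg adjustment over 15046 genes and a threshold of 0.05. Standard errors were derived from the F statistic and approximate 95% intervals from the t distribution. Levels of single genes were compared by exact two-sided permutation of log2(CPM + 1). The alternatives were DESeq2 1.42.0, its size factors in edgeR, library size alone, no filter, at least 10 counts in every library, only the libraries compared, a replicate block and each library left out, and, added after the data were seen, both libraries that lay apart left out.

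The 46 members and the lists were chosen with earlier results of these data known, so no test was run on a list as a whole. All 46 enter the counts and medians, and single values of 2 members are not reported here. Described in full, where reported, were the targeted gene, in each role the 2 members with the largest averaged ligature change and the one with the highest RPKM, the members called, those with the largest genotype differences, and Foxj1, Gli1 and Ptch1, and in the lists of cilium-related and motile cilium genes the 3 with the highest mean CPM and those called. The rule also covered the cell type and proliferation markers, which are given by counts, medians and sums instead. Counts ranged from 27958819 to 42613423 a library. Values rest on counting reads, so that precision at a low level such as that of Nphp4 is limited by its 18 to 41 counts. The code was tested on simulated counts.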

Additional observations from a re-analysis of the deposited data

How the results depend on the processing

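Of 46 members, the number called in the averaged ligature comparison was 9 without both libraries that lay apart and 3 to 7 when each library was left out in turn. In WT it was 0 with only the libraries compared, beside 324 of 14660 genes, or with a replicate block, and 0 to 1 with each library left out. In CybbKO it was 5 with DESeq2, 0 with only the libraries compared, beside 1519 of 14747 genes, 1 with the replicate block, beside 1573 of 15046, 6 without both libraries, and 0 to 5 with each left out. With library size alone the member median became 0.031 (averaged), 0.11 (WT) and -0.034 (CybbKO), and the median of all genes moved from -0.03 to 0.07, 0.08 and 0.05. Without both libraries the member median was 0.012 (averaged) and 0.11 (WT). Single libraries left out gave medians of -0.012 to 0.082 in WT and of -0.19 to -0.059 in the interaction. The cause was not tested. No member was called between the genotypes under any alternative run.

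Calls over all genes in the averaged comparison numbered 3668, against 5058 without both libraries, 2997 with the replicate block and 2531 to 4694 with each library left out. In WT they numbered 481, against 1372 with DESeq2, 271 with the replicate block, 1516 without both libraries and 27 to 900 with each left out, and in CybbKO 1954, against 3711 without both libraries and 837 to 2949 with each left out. Between the ligated groups DESeq2 called 18 genes and edgeR 1, and between the naive groups 2 and 1. Same-numbered libraries of different groups deviated together at r = -0.34 to 0.33 over 18 pairs, so the numbers were not taken as pairs. The replicate block gave the calls above and 3 averaged calls, and removed Cc2d2a in WT (0.55) and CybbKO (0.46).

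Some uncalled changes turned sign. With each library left out, in WT, Arl13b ran from -0.43 to 0.045, B9d1 from -0.30 to 0.16, Bbs2 from -0.089 to 0.038 and Kifap3 from -0.090 to 0.13. In CybbKO, Bbs10 ran from -0.15 to 0.16, Ift80 from -0.18 to 0.15 and Wdr19 from -0.052 to 0.20. B9d1 averaged ran from -0.22 to 0.014, and Wdr19 between the ligated groups from -0.25 to 0.0047. Without both libraries, B9d1 was 0.19 in WT and 0.0073 averaged, Bbs10 and Ift80 were 0.19 and 0.19 in CybbKO, and Wdr19 was 0.017 between the ligated groups. With library size alone, Bbs2 and Kifap3 were 0.064 and 0.11 in WT and Bbs10 and Ift80 0.069 and 0.065 in CybbKO, a scaling that moved the median of all genes the same way and by about as much. With only the libraries compared, Bbs10 and Ift80 were 0.010 and 0.0024. With at least 10 counts in every library, Kifap3 was 0.0085 in WT and Bbs10 0.00545 in CybbKO.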
